A study of Mus musculus with 18 samples.

Results

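A set of 8 immune regulatory genes, out of 12960 genes in the deposited expression table, was followed through B cell differentiation with and without the histone methyltransferase G9a. They were Tigit, Lag3, Ctla4, Cd274, Pdcd1lg2, Il10, Il10ra and Gpr171, chosen by symbol as markers and cytokines of regulatory B and plasma cells, and each of the 8 was present in the table. The table lists only genes that the authors detected, and the list was drawn up with earlier results of these data known, so the members' own differences are given as descriptions. Their adjusted p-values come from a fit of all tested genes and are not independent evidence. The RNA came from mouse spleen. KO mice were G9afl/fl, carrying floxed G9a (gene Ehmt2) with 1 Cre allele active in B lineage cells, and Ctrl mice carried the same Cre allele in 1 copy without floxed G9a. Both genotypes therefore shared the Cre allele and differed in the floxed G9a allele. Naive cells came from uninfected mice by CD43 bead enrichment. Activated B cells (B220+GL7+) and plasma cells (CD138+ with low or intermediate B220) were sorted 72 h after 50 µg of lipopolysaccharide (LPS, a bacterial outer membrane component that activates B cells) in 100 µl was given by tail vein, from cells negative for Zombie yellow, F4/80, Cd11b and Thy1.2. There were 3 libraries in each of the 6 groups, each from 1000 cells. Naive and activated groups differed in cell type, LPS and the way cells were isolated, which cannot be told apart. The labels give neither the ages of the mice nor whether replicates came from separate animals, so p-values measure the spread between these libraries, which may be technical.

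TIGIT, CTLA-4 and LAG-3 are inhibitory receptors best known from T cells: TIGIT binds the poliovirus receptor family, CTLA-4 competes with CD28 for CD80 and CD86, and LAG-3 binds MHC class II. PD-L1 (Cd274) and PD-L2 (Pdcd1lg2) are the ligands of the inhibitory receptor PD-1. IL-10 is the main anti-inflammatory cytokine of regulatory B cells, and IL-10-producing plasma cells that carry LAG-3 are known as regulatory plasma cells; Il10ra encodes the ligand-binding chain of the IL-10 receptor. Gpr171 encodes a G protein-coupled receptor of the P2Y-like family. G9a methylates histone H3 at lysine 9, which marks silent chromatin.

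Promoter sequences are shown for the 4 genes that the RefSeq promoter table for GRCm38.p6 held, because Tigit, Ctla4 and Pdcd1lg2 moved strongly with cell type or genotype and Cd274 is the neighbour of Pdcd1lg2. Each runs 5′ to 3′ on the gene's own strand, from 250 bases before to 50 bases after the start, with CpG dinucleotides in capitals. Tigit lies at chr16:43664135-43664434 on the minus strand, Ctla4 at chr1:60908775-60909074 on the plus strand, Cd274 at chr19:29367188-29367487 on the plus strand and Pdcd1lg2 at chr19:29410669-29410968 on the plus strand.
Tigit: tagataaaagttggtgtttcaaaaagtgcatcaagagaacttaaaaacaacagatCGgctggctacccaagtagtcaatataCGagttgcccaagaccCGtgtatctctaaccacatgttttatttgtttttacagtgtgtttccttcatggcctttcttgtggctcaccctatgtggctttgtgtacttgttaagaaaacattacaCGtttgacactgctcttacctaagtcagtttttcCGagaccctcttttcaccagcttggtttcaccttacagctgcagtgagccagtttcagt
Ctla4: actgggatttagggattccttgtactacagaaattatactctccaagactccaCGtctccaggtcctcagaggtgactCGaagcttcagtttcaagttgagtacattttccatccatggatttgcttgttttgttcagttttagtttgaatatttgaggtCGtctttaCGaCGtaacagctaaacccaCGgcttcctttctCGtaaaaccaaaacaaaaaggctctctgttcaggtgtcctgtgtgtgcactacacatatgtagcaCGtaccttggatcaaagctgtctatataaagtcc
Cd274: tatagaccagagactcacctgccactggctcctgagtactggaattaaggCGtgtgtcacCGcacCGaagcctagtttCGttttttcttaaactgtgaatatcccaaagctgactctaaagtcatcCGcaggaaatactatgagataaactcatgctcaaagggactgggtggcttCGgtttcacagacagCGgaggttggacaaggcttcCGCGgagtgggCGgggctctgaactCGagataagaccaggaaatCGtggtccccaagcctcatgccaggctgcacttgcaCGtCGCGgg
Pdcd1lg2: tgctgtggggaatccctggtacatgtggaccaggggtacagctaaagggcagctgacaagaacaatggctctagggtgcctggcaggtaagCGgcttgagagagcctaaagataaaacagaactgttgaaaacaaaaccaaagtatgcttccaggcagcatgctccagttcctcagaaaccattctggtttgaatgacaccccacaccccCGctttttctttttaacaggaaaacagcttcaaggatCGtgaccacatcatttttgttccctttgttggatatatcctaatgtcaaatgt
The Tigit promoter held 5 CpG at 41.3% GC, that of Ctla4 8 at 42% GC and that of Pdcd1lg2 3 at 46% GC. The Cd274 promoter held 15 CpG at 52.7% GC. The median of 13085 promoters of the same length was 19 CpG at 59.7% GC, so each of the 4 had fewer CpG than the median promoter, and the 3 genes whose promoters had the fewest were Pdcd1lg2, Tigit and Ctla4. On both strands, 10 short motifs were searched. TATAAA, the letters of the TATA box, was found in Ctla4 alone of the 4, and in 8.06% of all promoters. The match in Ctla4 lay near the end of the sequence shown, among the 50 bases after the start. Its place therefore does not mark it as a TATA box of that start. The E-box CAGCTG was found in Tigit and Pdcd1lg2, and in 15.4% of all promoters. Cd274 held GGGCGG (the GC box, 58.7% of all promoters) and GATAAG (the GATA motif, 5.54%). GGAAA, the core bound by NFAT, was found in all 4 and in 59.6% of all promoters. The other 5 were in none of the 4: TGACTCA (AP-1, 3.59% of all promoters), CACGTG (E-box, 9.78%), TTCNNNGAA (STAT, 7.01%), the interferon-stimulated response element (3.34%) and TGTTTAC (forkhead, 2.7%). Only letters were matched, with no measurement of binding.

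The values were RPKM, reads per kilobase of gene and scaled to the reads sequenced, divided by a scaling factor per library. They are given per library in replicate order or as mean ± SD (n = 3 libraries per group). Differences were taken as log2(scaled RPKM + 1), and limma gave adjusted p-values over 12787 tested genes, of which each of the 8 was one, and a gene was called under 0.05. This scale understates fold changes of low genes. By estimate, naive libraries held 1.63 to 4.07 M reads (mega-reads), activated libraries 2.66 to 10.8 M, and those of plasma cells 5.13 to 6.93 M. The naive libraries were the noisiest: the median SD of a gene was 0.388 in naive KO and 0.369 in naive Ctrl, against 0.125 to 0.134 in the other groups. The gauge of low signal was the median of the 57 odorant receptor genes in the table. This median was 1.75 to 7.22 RPKM in naive libraries and at most 1.01 in the others. The table lists only detected genes, and odorant receptor genes detected through the naive libraries may raise the naive median. It is therefore not a neutral floor. Ehmt2 itself stood at 13.8 ± 1.28 RPKM in KO and 17.2 ± 0.873 in Ctrl plasma cells and was called in none of the cell types, but whole-gene values do not show the deleted part apart from the rest, so the deletion is not checked here. The plasma cell libraries matched their name: 7 plasma cell markers summed to 11670 to 14341 RPKM in plasma cells and to at most 1786 in the other libraries, and 6 markers of activated B cells summed to 507 to 737 in activated and to at most 72 in naive libraries. Those 6 markers also summed to 612 to 698 in plasma cells, so the sum does not set activated cells apart from plasma cells. It was carried by genes of dividing cells (Rrm2, Ccna2 and Mki67), whereas Bcl6, a factor of germinal centre B cells, was called lower after activation (-3.11 in KO and -3.22 in Ctrl on the log2 scale), and Fas differed there by -0.05 in KO and 0.14 in Ctrl without a call.

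Tigit was a plasma cell transcript in this series, and its KO libraries lay above its Ctrl libraries in activated and plasma cells. In naive cells it had 0.263, 0 and 0 RPKM in KO, against 0.5, 0.746 and 0 in Ctrl, which are at most 3 estimated reads in a library. Activated cells had 4.2, 3.37 and 3.92 RPKM in KO, against 1.03, 1.13 and 2.45 in Ctrl. Plasma cells had 129, 113 and 133 RPKM in KO, against 73.6, 77.3 and 87 in Ctrl. The naive groups overlapped near 0, the activated groups stood a little above them, and the plasma cell groups stood far above both. The step from activated to plasma cells was 4.70 in KO (SE 0.23, adjusted p = 9.9e-12, limma) and 5.02 in Ctrl (adjusted p = 4.0e-12), where plasma cells held 51.6 times the RPKM of activated cells. Activated cells in turn were above naive cells, by 2.16 in KO (adjusted p = 5.3e-07) and by 0.84 in Ctrl (adjusted p = 0.005).

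KO and Ctrl activated cells differed in Tigit by 0.97 (SE 0.23, adjusted p = 0.037), 2.49 times the Ctrl mean. This call was lost without any 1 of 5 of the 6 activated libraries, activated Ctrl library 4 being the exception, with adjusted p up to 0.211, and with a pseudocount of 0.1 (adjusted p = 0.468). In activated cells the sum of plasma cell markers was lower in KO, at 902 to 1091 RPKM, against 1608 to 1786 in Ctrl, so Tigit and the plasma cell markers moved in opposite directions there. In plasma cells the KO mean of 125 ± 10.3 RPKM was 1.58 times the Ctrl mean of 79.3 ± 6.92, a difference of 0.65 (SE 0.23) that was not called when all 18 libraries shared one spread (adjusted p = 0.456). It was called in the fit of the 6 plasma cell libraries alone (adjusted p = 0.003). The KO difference in activated cells exceeded that in naive cells by 1.32 (SE 0.33, adjusted p = 0.039), a call lost without any 1 of 7 of the 12 libraries (naive KO 3, naive Ctrl 1, each of the 3 activated KO, and activated Ctrl 1 and 3), with adjusted p up to 0.109. It was also lost with quantile normalization (adjusted p = 0.097), a pseudocount of 0.1 (0.152), only the libraries compared (0.211) and library weights (0.250). Tigit (chr16:43626137-43665125, minus strand) overlaps Zbtb20, and as the sources used here do not say that reads were counted by strand, reads of the shared stretch cannot be told apart. Zbtb20 was at 7.97 ± 0.442 RPKM in KO and 6.39 ± 0.527 in Ctrl plasma cells and was not called in any KO comparison.

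Ctla4 (chr1:60909025-60915832, plus strand) was the second receptor that was high in plasma cells, where the genotypes overlapped. Plasma cells had 58.4, 39.9 and 31.9 RPKM in KO, against 39.7, 41.9 and 45.7 in Ctrl. The KO libraries spread on both sides of the Ctrl libraries, and the difference was -0.01 (SE 0.36, adjusted p = 1). Activated cells had 2.18, 3.17 and 1.45 RPKM in KO, against 5.7, 7.2 and 3.16 in Ctrl. These nearly separated groups differed by -0.94 (adjusted p = 0.286), and the difference was called when only the activated libraries were fitted (adjusted p = 0.046). Plasma cells exceeded activated cells by 3.75 in KO (adjusted p = 9.2e-08) and by 2.83 in Ctrl (adjusted p = 3.7e-06). In naive cells Ctla4 had 0.262, 1.86 and 0 RPKM in KO, against 4.73, 2.11 and 2.92 in Ctrl, and it was called lower in KO (-1.42, SE 0.36, adjusted p = 0.024). Each of these naive values lay below the odorant receptor median of its own library, which was 1.75 to 5.13 RPKM in naive KO and 4.41 to 7.22 in naive Ctrl libraries; the part of this low signal in the call was not tested. The call was lost without naive KO library 1 or 3 or naive Ctrl library 1, with adjusted p up to 0.078, with quantile normalization (adjusted p = 0.071), with only the libraries compared (0.680) and with library weights (0.613). T cell markers had lower means in KO naive cells too, with Cd3e at 0.78 ± 0.453 RPKM in KO and 2.88 ± 3.69 in Ctrl, Cd4 at 1.69 ± 0.839 in KO and 5.53 ± 6.16 in Ctrl and Cd8b1 at 3.43 ± 1.22 in KO and 6.39 ± 3.69 in Ctrl. None of these 3 differences was called, and their part in that of Ctla4 was not tested. The neighbours of Ctla4 on chromosome 1 were not alike. Cd28 had 14.4 ± 1.79 RPKM in KO and 13.6 ± 0.991 in Ctrl plasma cells, while Icos had 0.209 ± 0.0723 in KO and 0.295 ± 0.0877 in Ctrl plasma cells.

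Lag3 (chr6:124904359-124912434, minus strand) stayed low in all groups. Plasma cells had 1.85, 1.82 and 1.03 RPKM in KO, against 3.69, 2.33 and 3.16 in Ctrl, with every KO library below every Ctrl library. The difference of -0.67 was not called (SE 0.37, adjusted p = 1), nor in the fit of the plasma cell libraries alone (adjusted p = 0.080), but it was called with library weights (adjusted p = 0.007) and without the naive libraries (adjusted p = 0.027). Activated cells had at most 0.18 RPKM in KO and 0.121 in Ctrl, which are at most 4 estimated reads. Plasma cells exceeded activated cells by 1.19 in KO (adjusted p = 0.017) and by 1.89 in Ctrl (adjusted p = 4.5e-04). The KO step was lost without activated KO library 4 or plasma KO library 1 or 3. Naive cells had 1.52, 0.3 and 0.789 RPKM in KO, against 4.08, 0.358 and 3.21 in Ctrl. The naive groups overlapped and lay below the odorant receptor median of their own libraries.

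**Figure D1:**
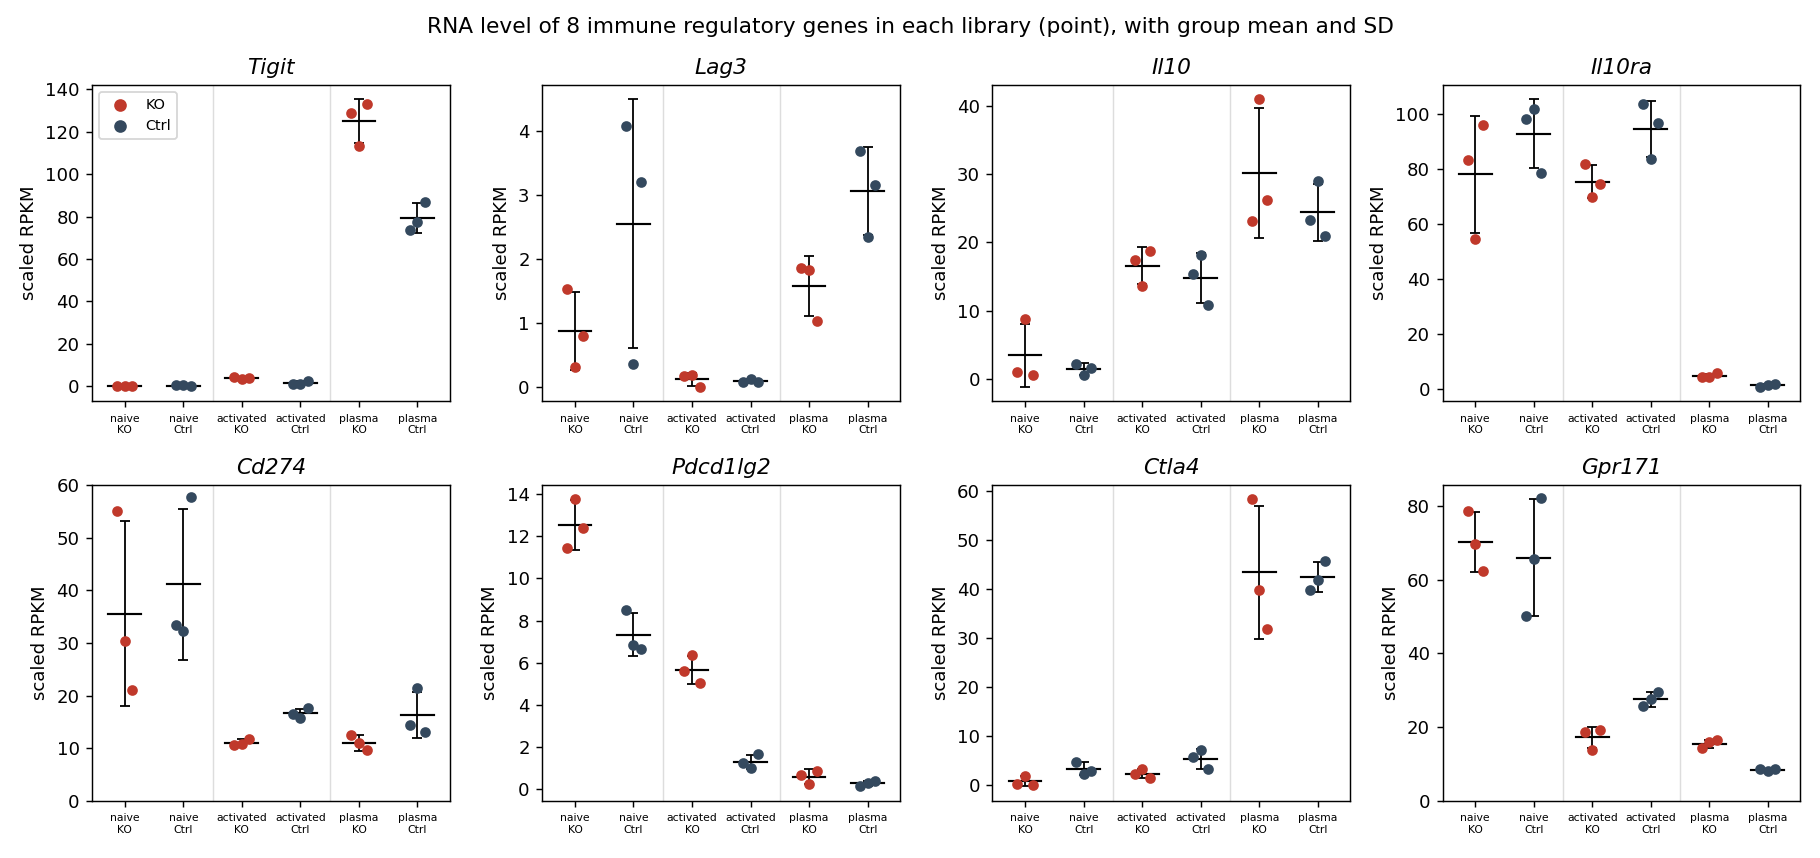
Scaled RPKM (vertical axes, linear, one scale per gene) of the 8 genes in each library (points) of the 6 groups, with group mean (line) and SD (bar). Tigit and Ctla4 stand in the plasma cell groups, Il10ra, Cd274, Pdcd1lg2 and Gpr171 are highest in naive or activated cells, and Tigit is at 113 to 133 RPKM in KO plasma cells, above the 73.6 to 87 of Ctrl.

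Because T cells also express Tigit, Ctla4 and Lag3, their markers were read in the same libraries. Of 15 T cell markers listed, 5 were in the table (Cd3e, Cd4, Cd8b1, Lck and Cd28), and they summed to 25.7 to 34 RPKM in KO and 15.8 to 74.4 in Ctrl naive cells. The sum was 25.2 to 31 RPKM in KO plasma cells and 14.3 to 17.2 in Ctrl plasma cells. In activated cells they summed to 12.6 to 14.2 RPKM in KO and 7.67 to 8.18 in Ctrl. Cd28, also a gene of plasma cells, made up 12.3 to 15.8 RPKM of the KO and 12.6 to 14.6 of the Ctrl plasma cell sums. Cd3e, a chain of the T cell receptor complex, had 7.19 to 10.2 RPKM in KO plasma cells and 0 to 0.121 in Ctrl plasma cells, a difference of 3.16 (SE 0.47, adjusted p = 0.001, limma). Cd8b1 had 2.05 to 4.73 RPKM in KO plasma cells and 0.445 to 1.1 in Ctrl (adjusted p = 0.271). Cd4 was near 0 in plasma cells of both genotypes, with 0.0467 to 0.0739 RPKM in KO and 0 to 0.108 in Ctrl. Lck, a kinase of T cell receptor signalling, had 1.54 ± 0.562 RPKM in KO and 1.59 ± 0.485 in Ctrl plasma cells (-0.03, adjusted p = 1), and made up most of the activated sum, at 11 ± 1.34 in KO and 6.79 ± 0.546 in Ctrl (0.62, adjusted p = 0.583). None of the 5 was at 0 in all 3 libraries of any group. Cd3e and Cd8b1, the second without a call, thus moved with Tigit in plasma cells, and their part in the Tigit difference was not tested. In Ctrl plasma cells, where Cd3e was at most 0.121 RPKM, Tigit was at 73.6 to 87 and Ctla4 at 39.7 to 45.7 RPKM. In bulk samples fewer cells of a type and less RNA per cell cannot be told apart.

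**Figure D2:**
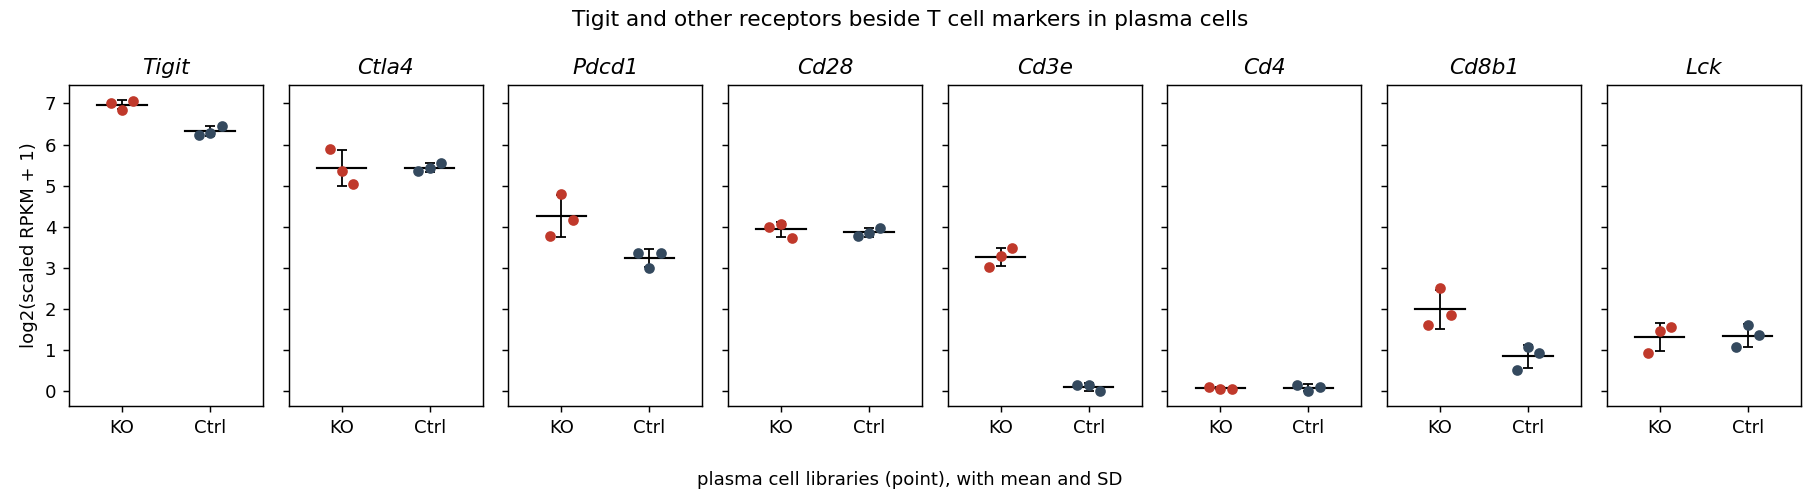
Tigit, Ctla4, Pdcd1 and Cd28 beside the T cell markers Cd3e, Cd4, Cd8b1 and Lck in the 3 KO and 3 Ctrl plasma cell libraries (points, with mean and SD), on the log2(scaled RPKM + 1) scale. Tigit, Pdcd1, Cd3e and Cd8b1 are each higher in all 3 KO libraries than in the 3 Ctrl libraries. Ctla4, Cd28 and Lck overlap, and Cd4 is near 0.

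Pdcd1lg2 (chr19:29410919-29472927, plus strand), the gene of PD-L2, was the member with the largest KO difference, and it lay in activated cells. Activated cells had 5.59, 6.37 and 5.04 RPKM in KO, against 1.23, 0.989 and 1.65 in Ctrl. The groups were far apart, at 5.67 ± 0.67 RPKM in KO and 1.29 ± 0.333 in Ctrl, a ratio of 4.4 and a difference of 1.55 (SE 0.22, adjusted p = 5.4e-04). This call held under each alternative, including without any 1 library (adjusted p 0.002 to 0.007). Naive cells had 11.4, 13.8 and 12.4 RPKM in KO, against 8.49, 6.82 and 6.63 in Ctrl. Naive Ctrl library 3 lay below the odorant receptor median of its own library (7.22 RPKM), and the other naive libraries lay above theirs. The part of low signal in these naive values was not tested. Every naive KO library was above every Ctrl library, and the difference of 0.71 just missed the threshold (adjusted p = 0.054). Plasma cells had 0.681, 0.214 and 0.867 RPKM in KO and 0.125, 0.274 and 0.393 in Ctrl, overlapping near the lower end of measurement. Through differentiation the gene fell in both genotypes: activated cells were below naive cells by -1.02 in KO (adjusted p = 6.8e-04) and -1.86 in Ctrl (adjusted p = 1.6e-06), and plasma cells below activated cells by -2.09 in KO (adjusted p = 2.7e-07) and -0.85 in Ctrl (adjusted p = 0.004). From naive to activated cells the mean went from 12.5 to 5.67 RPKM in KO and from 7.32 to 1.29 in Ctrl. The change of the KO difference was not called between activated and naive cells (0.84, adjusted p = 0.156) or between plasma and activated cells (-1.24, adjusted p = 0.188).

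Cd274, the PD-L1 gene (chr19:29362107-29388095, plus strand), lies 22824 bp from Pdcd1lg2 and did not follow it. Activated cells had 10.6, 10.8 and 11.7 RPKM in KO, against 16.4, 15.8 and 17.6 in Ctrl. Plasma cells had 12.5, 10.9 and 9.55 RPKM in KO, against 14.5, 21.4 and 13 in Ctrl. In both cell types all KO libraries were below all Ctrl libraries, the opposite of Pdcd1lg2 in activated cells, but neither difference was called in the fit of all libraries (activated -0.55, SE 0.27, adjusted p = 0.532; plasma -0.51, adjusted p = 1). In the fit of the activated libraries alone the first was called (adjusted p = 0.007). Naive cells had 55.1, 30.4 and 21.1 RPKM in KO, against 33.5, 32.2 and 57.7 in Ctrl, with wide overlap. Cd274 fell on activation, by -1.49 in KO (adjusted p = 1.9e-04) and -1.21 in Ctrl (adjusted p = 0.001), and plasma and activated cells differed by -0.01 in KO (adjusted p = 0.986) and -0.05 in Ctrl (adjusted p = 0.957). Its annotated span overlaps Plgrkt, which had 42.3 ± 8.79 RPKM in KO and 67 ± 4.5 in Ctrl activated cells (-0.67, adjusted p = 0.199). Reads of the shared stretch cannot be told apart. The Cd274 promoter shown above belongs to a start further inside this span, past the end of Plgrkt at 29367292. A transcript from that start shares no stretch with Plgrkt. Neither ligand's other neighbour, Insl6 or A930007I19Rik, was called in activated or plasma cells.

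Markers of monocytes and dendritic cells, which carry the PD-1 ligands and Il10ra, were read beside them. Of 7 monocyte and macrophage markers, 6 were in the table, and their sum was 52.9 to 107 RPKM in KO and 75.4 to 88.5 in Ctrl naive cells. From naive to activated cells 4 of the 6 fell and 1 rose in each genotype. Among those that fell was C1qa, at -3.52 in KO and -4.33 in Ctrl on the log2 scale. The one that rose was Itgam, the gene of Cd11b, with means from 2.04 to 13.3 RPKM in KO and from 2.49 to 17.2 in Ctrl. Cd274 and Pdcd1lg2 fell at the same step, and the part of monocytes and macrophages in their falls was not tested. The sum was 26.6 to 56.4 RPKM in KO and 32 to 35.9 in Ctrl activated cells. In plasma cells the sum was 19 to 45 RPKM in KO and 15.3 to 24.6 in Ctrl, and 1 KO library had Csf1r at 6.35 RPKM. Of 6 dendritic cell markers, 5 were in the table, with sums of 37.9 to 42.1 RPKM in KO and 30.2 to 37.4 in Ctrl activated cells and 4.97 to 6 in KO and 4.54 to 6.3 in Ctrl plasma cells. Nearly all of the activated sum was Flt3, a growth factor receptor, at 38.2 ± 2.35 RPKM in KO and 31.1 ± 3.2 in Ctrl, while the other 4 markers had lower means in KO than in Ctrl activated cells and were each at most 1.98 RPKM there. The median KO difference over the 5 was -0.12. No marker of either list was called in a KO comparison.

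Il10 (chr1:131019845-131024970, plus strand) rose on activation in both genotypes, which overlapped at every stage. Activated cells had 17.5, 13.5 and 18.7 RPKM in KO, against 15.3, 18.2 and 10.8 in Ctrl. Plasma cells had 23.2, 41 and 26.3 RPKM in KO, against 23.3, 29 and 20.9 in Ctrl. The genotypes overlapped in both, with differences of 0.17 and 0.27 (SE 0.47, adjusted p = 1 for each). Naive cells had 0.971, 8.74 and 0.605 RPKM in KO, against 2.21, 0.55 and 1.57 in Ctrl, and 1 KO library stood apart. Activated cells exceeded naive cells by 2.48 in KO (adjusted p = 2.7e-04) and 2.73 in Ctrl (adjusted p = 1.1e-04). The next step to plasma cells was 0.80 in KO (adjusted p = 0.231) and 0.70 in Ctrl (adjusted p = 0.309). In each genotype every plasma cell library was above every activated library, and the step was called when the 2 cell types were fitted alone (adjusted p = 0.005 in both genotypes), as were 52.7% of all genes in KO and 50.3% in Ctrl.

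Il10ra (chr9:45253837-45269149, minus strand) was level from naive to activated cells and nearly lost in plasma cells, less so in KO. On activation, where Il10 rose, Il10ra differed by -0.01 in KO and 0.03 in Ctrl without a call. Naive cells had 83.3, 54.4 and 96 RPKM in KO, against 98, 102 and 78.4 in Ctrl. Activated cells had 81.7, 69.8 and 74.4 RPKM in KO, against 104, 83.6 and 96.5 in Ctrl. Plasma cells had 4.34, 4.44 and 5.7 RPKM in KO, against 0.873, 1.54 and 1.91 in Ctrl. In activated cells all KO libraries lay below all Ctrl libraries without a call (-0.32, adjusted p = 0.720), and in plasma cells the order was the other way round. The plasma cell means of 4.83 ± 0.757 RPKM in KO and 1.44 ± 0.525 in Ctrl were 3.35-fold apart, a difference of 1.27 (SE 0.20, adjusted p = 0.002). The call held under each alternative and without any 1 library (adjusted p 0.003 to 0.021). The step from activated to plasma cells was -3.72 in KO (adjusted p = 2.2e-11) and -5.31 in Ctrl (adjusted p = 2.0e-13), and the KO difference in plasma cells exceeded that in activated cells by 1.59 (SE 0.28, adjusted p = 0.019) and that in naive cells by 1.55 (adjusted p = 0.009). The first of these was lost without any 1 of 6 libraries (activated KO 3 or 4, activated Ctrl 1 or 4, plasma KO 4 or plasma Ctrl 1), with adjusted p up to 0.092, and the second when only the libraries compared were fitted (adjusted p = 0.092) or with library weights (adjusted p = 0.136). Since Il10ra was high in B cells, B cell markers were read beside it. The 7 in the table summed to 978 to 1127 RPKM in KO plasma cells and 1337 to 1683 in Ctrl plasma cells, so the sum was lower in KO where Il10ra was higher. Of the 7 genes, 0 were called higher and 1 was called lower in KO plasma cells.

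Gpr171 (chr3:59096448-59101821, minus strand) was lower in KO activated cells and higher in KO plasma cells. Naive cells had 78.5, 69.7 and 62.2 RPKM in KO, against 50.2, 65.7 and 82.1 in Ctrl. Activated cells had 18.5, 13.8 and 19.2 RPKM in KO, against 25.6, 27.5 and 29.6 in Ctrl. Plasma cells had 14.3, 15.9 and 16.4 RPKM in KO, against 8.49, 7.94 and 8.53 in Ctrl. The naive groups overlapped, the activated groups separated with KO below, and the plasma cell groups separated with KO above. The differences were -0.66 in activated cells (SE 0.16, adjusted p = 0.045) and 0.82 in plasma cells (SE 0.16, adjusted p = 0.020), and the change between them was 1.49 (SE 0.23, adjusted p = 0.007). Each of the first 2 calls was lost without any 1 of its 6 libraries (adjusted p up to 0.304 in activated and 0.126 in plasma cells), and both were lost under quantile normalization (adjusted p = 0.059 in activated and 0.079 in plasma cells). The one in activated cells was also lost with RPKM as deposited (adjusted p = 0.057). In KO the gene fell between naive and activated cells (-1.98, adjusted p = 2.0e-08) and its next step, to plasma cells, was -0.13 (adjusted p = 0.680). In Ctrl it fell at both steps (-1.20, adjusted p = 1.1e-05, and -1.61, adjusted p = 2.2e-07). Gpr171 lies within Med12l, which was at 0.298 ± 0.261 RPKM in KO and 0.198 ± 0.134 in Ctrl plasma cells, so reads of shared stretches cannot be told apart.

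**Figure D3:**
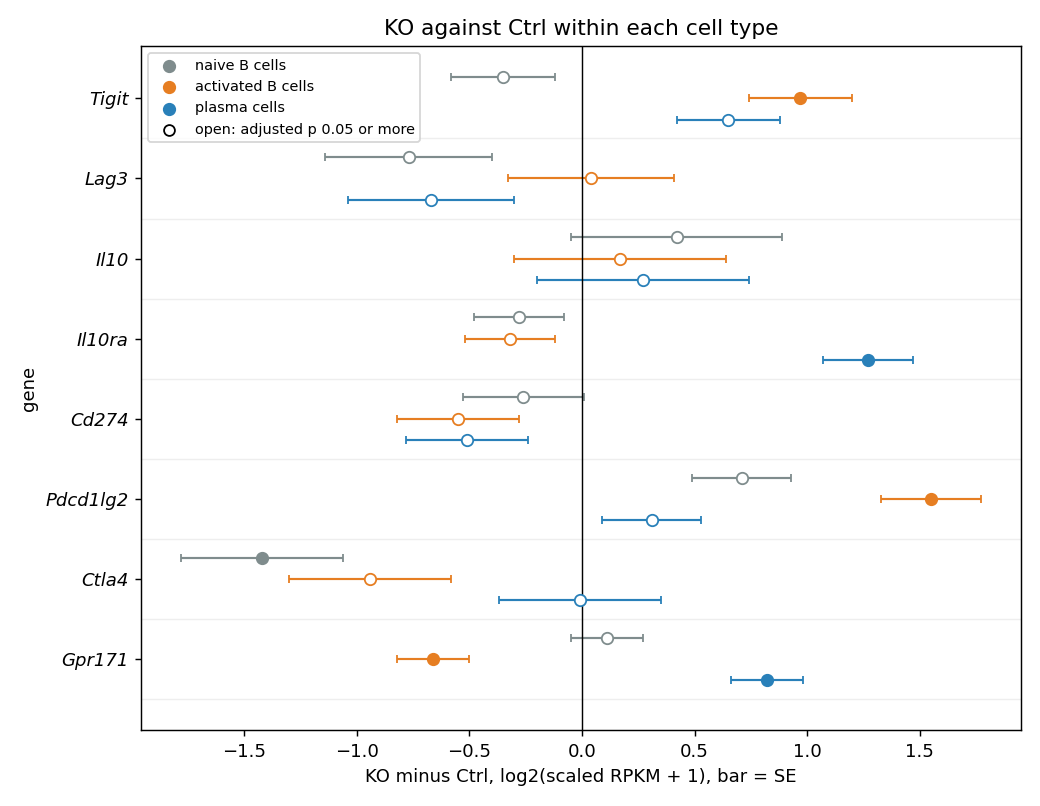
KO minus Ctrl on the log2(scaled RPKM + 1) scale (horizontal axis, bar = SE) for the 8 genes (vertical axis) in naive, activated and plasma cells; filled points were called at an adjusted p under 0.05. Pdcd1lg2 in activated cells (1.55) and Il10ra in plasma cells (1.27) lie farthest to the right, and Gpr171 stands on opposite sides of 0 in activated and plasma cells.

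Counted together, 3 of the 8 were called in activated cells (Pdcd1lg2 and Tigit higher, Gpr171 lower), where 1.78% of all tested genes were called. In plasma cells 2 were called, both higher (Il10ra and Gpr171), against 0.61% of all tested genes. In naive cells 1 was called (Ctla4, lower), against 7.23% of all. With only the libraries compared in the fit, 5 were called in activated and 3 in plasma cells, against 11.3% and 5.11% of all tested genes, and 0 in naive cells, where limma called 0 genes at all. As the genes were picked with results known, these shares are a description. The median difference over the 8 was -0.27 in naive, -0.14 in activated and 0.29 in plasma cells, against -0.09, -0.02 and 0.00 over all tested genes, so no common direction was seen. The ranges of the 3 KO and 3 Ctrl libraries did not overlap for 2 of the 8 in naive, 5 in activated and 5 in plasma cells, against 12.2%, 31.3% and 24.8% of all tested genes. For the differences of the KO effect, 1 gene was called between activated and naive cells (2.62% of all), 2 between plasma and activated cells (0.156%) and 1 between plasma and naive cells (1.38%).

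Steps between cell types were called for most of the 8, as for a large share of all genes. From naive to activated cells 6 were called in KO and 6 in Ctrl, against 55.7% and 58.4% of all tested genes. From activated to plasma cells 5 were called in KO and 6 in Ctrl, against 33.1% and 32.8%. Between plasma and naive cells 7 were called in each genotype, against 61.9% of all genes in KO and 68.7% in Ctrl. The median step of all tested genes was itself below 0 and moved with the scaling: for plasma minus naive cells in Ctrl it was -0.37, but -0.51 with RPKM as deposited and -0.06 after quantile normalization. Relative to these medians Tigit, Ctla4 and Il10 were higher, and Il10ra, Pdcd1lg2, Gpr171 and Cd274 lower, in plasma than in naive cells of both genotypes. Lag3 was not called between plasma and naive cells (0.49 in KO, adjusted p = 0.250; 0.39 in Ctrl, adjusted p = 0.358).

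**Figure D4:**
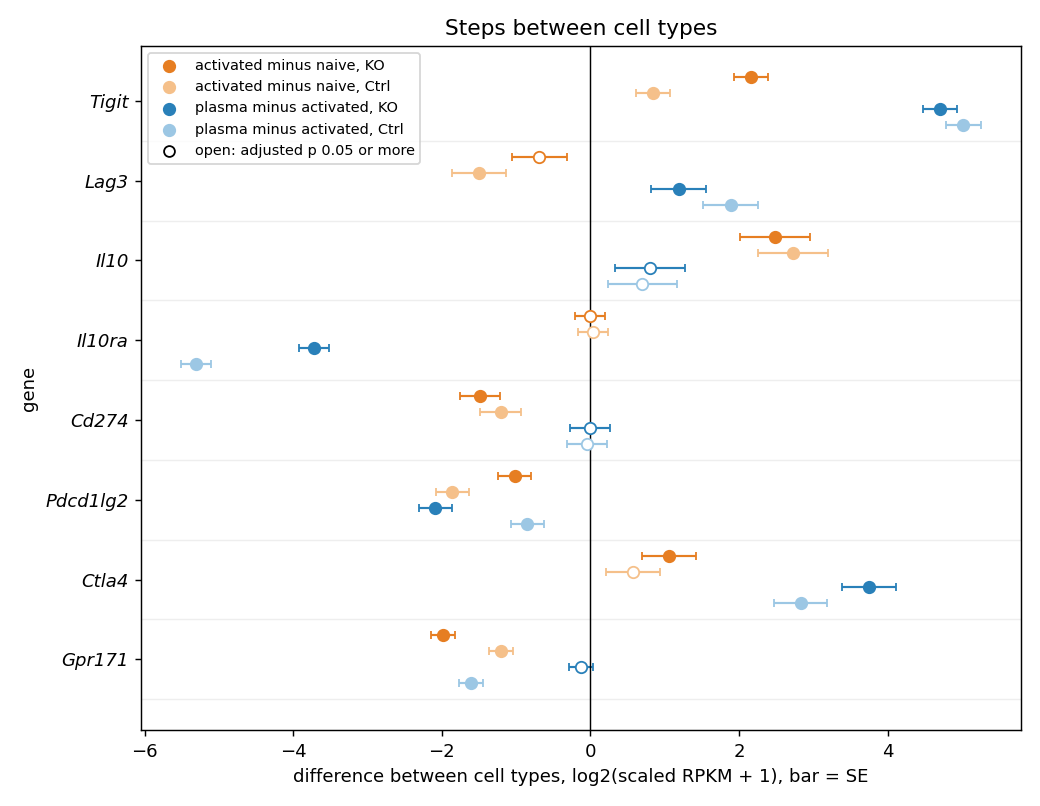
Differences between successive cell types on the log2(scaled RPKM + 1) scale (horizontal axis, bar = SE) for the 8 genes within KO (dark) and Ctrl (light); filled points were called. Tigit and Ctla4 rise at the plasma cell step by 2.83 to 5.02, Il10ra changes there by -3.72 in KO and -5.31 in Ctrl, and Il10 rises mainly on activation.

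The order of mean levels differed by gene. For Tigit it was KO plasma, Ctrl plasma, KO activated, Ctrl activated, Ctrl naive and KO naive, and only the last pair overlapped. Pdcd1lg2 ran the other way, from KO naive through Ctrl naive, KO activated and Ctrl activated to the plasma cell groups, and again only the last pair overlapped. For Il10ra the first 4 groups (Ctrl activated, Ctrl naive, KO naive, KO activated) overlapped with their neighbours, and the plasma cell groups stood below, KO above Ctrl. For Il10 and Ctla4 the genotypes overlapped within each cell type, except for Ctla4 in naive cells. Lag3 had 1 break in its order, between the naive and activated groups.

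Partners of the 8 were read from a list of 25 genes, of which 17 were tested. None was called in naive or activated cells between genotypes, and 2 were called lower in KO plasma cells. Both were MHC class II genes, whose products bind LAG-3. H2-Aa had 138 ± 12.5 RPKM in KO and 190 ± 22.3 in Ctrl plasma cells (-0.45, adjusted p = 0.026), and H2-Eb1 had 115 ± 12.3 in KO and 162 ± 26.2 in Ctrl (-0.48, adjusted p = 0.031). H2-Ab1 was at 463 ± 35.6 RPKM in KO and 663 ± 109 in Ctrl plasma cells without a call (adjusted p = 0.114). Jak1, a kinase of the IL-10 receptor, fell at both steps in Ctrl and stood at 39.2 ± 4.64 RPKM in KO and 41.8 ± 0.939 in Ctrl plasma cells. At the step from activated to plasma cells 5 partners were called higher and 9 lower in KO, and 4 higher and 9 lower in Ctrl. The list's median step was -1.27 in KO and -1.23 in Ctrl, against -0.02 and -0.03 over all tested genes.

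Some partners were plasma cell transcripts too. Pdcd1, the gene of PD-1 itself, had 18.9 ± 7.19 RPKM in KO and 8.52 ± 1.32 in Ctrl plasma cells, and at most 1 RPKM in any other library. Its step from activated to plasma cells was 3.70 in KO (adjusted p = 1.5e-09) and 2.49 in Ctrl (adjusted p = 3.5e-07). The KO difference in plasma cells was 1.01 (adjusted p = 0.117), with KO libraries at 12.8 to 26.8 and Ctrl libraries at 7 to 9.35 RPKM. The CTLA-4 ligand Cd86 went the other way, with 1.8 ± 1.14 RPKM in KO and 1.02 ± 0.145 in Ctrl plasma cells, against 40.6 ± 5.6 in KO and 39.3 ± 3.09 in Ctrl activated cells. Pvr, a TIGIT ligand, was low throughout, at 3.36 ± 0.315 RPKM in KO and 3.61 ± 1.35 in Ctrl plasma cells. Of the IL-10 receptor pathway, Stat3 was at 56.3 ± 2.26 RPKM in KO and 61.5 ± 4.6 in Ctrl plasma cells, while Socs3, an inhibitor of cytokine signalling, was at 2.18 ± 0.731 in KO and 3.87 ± 1.99 in Ctrl. Pdcd1, Cd86, Pvr, Stat3 and Socs3 were singled out after their values were seen.

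**Figure D5:**
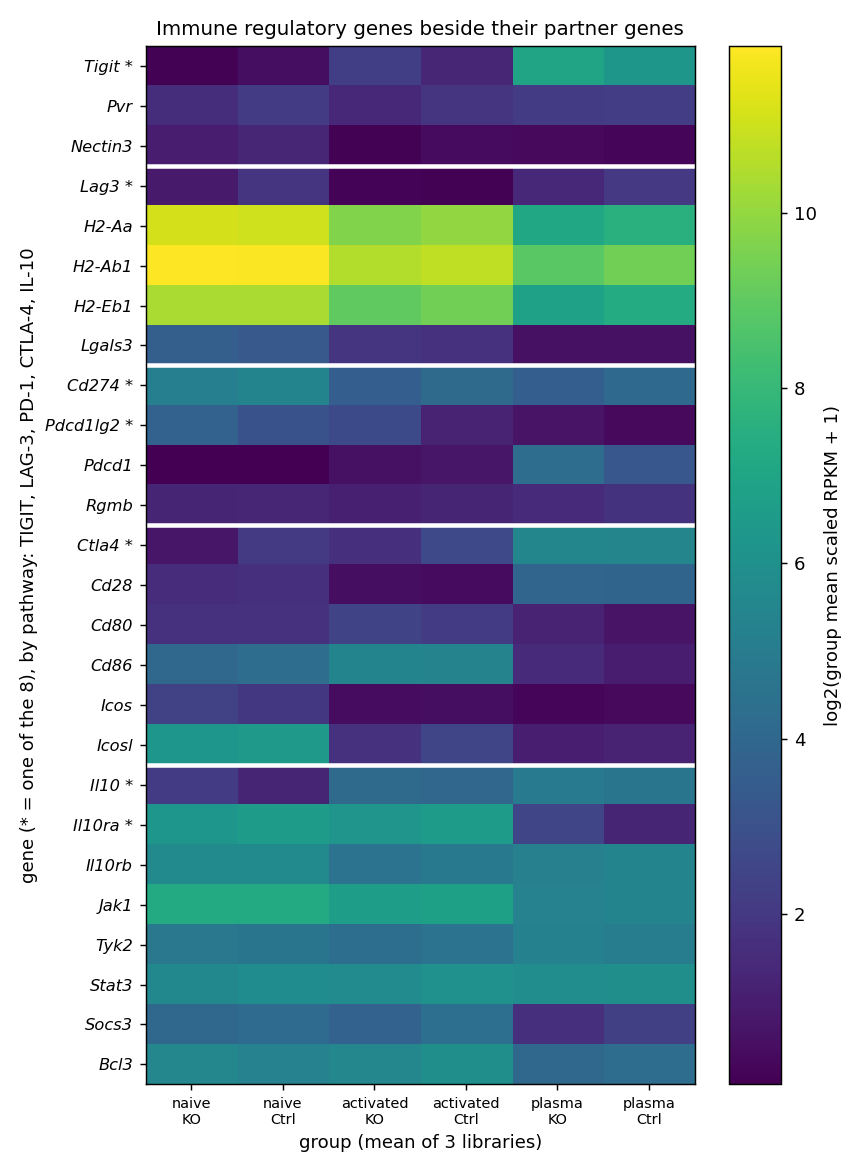
Group means of 3 libraries as log2(mean scaled RPKM + 1) (colour) for 7 of the 8 genes (starred) and genes of the same pathways (rows) in the 6 groups (columns). Pdcd1 and Cd28 are brightest in plasma cells, as are Tigit and Ctla4, whereas Cd86 and Il10ra are dark there.

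Other coinhibitory receptors and ligands were read from a list of 27 genes. Of 21 tested, 11 were called lower and 2 higher in Ctrl plasma against Ctrl activated cells, with a median of -0.69. Cd22, an inhibitory lectin of the B cell receptor, fell by 6.86 there (adjusted p = 8.5e-14), and Ceacam1 fell by 5.12 (adjusted p = 2.2e-13). Between genotypes, Cd72, another B cell inhibitory receptor, had 82.9 ± 16.4 RPKM in KO and 173 ± 13.6 in Ctrl activated cells (-1.07, adjusted p = 0.004). Siglecg, a Siglec that restrains B cells, had 8.77 ± 0.39 RPKM in KO and 4.5 ± 1.02 in Ctrl plasma cells (0.85, adjusted p = 0.003). In all, 2 of the 21 were lower in KO activated cells, and 1 was higher and 1 lower in KO plasma cells. The gene counted as lower in both was Fcgr2b, the inhibitory Fc receptor, with -0.56 in activated and -0.59 in plasma cells (adjusted p = 0.003 for each). Fcgr2b, like Irf1, P2ry12 and Tnfrsf18 below, is named only to complete a count.

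Among 18 tested regulatory B and plasma cell markers and cytokines, 1 was called between genotypes in plasma cells and 1 in naive cells. In naive cells it was Tnfrsf18, the gene of GITR (0.81, adjusted p = 0.031). In plasma cells it was Cr2, the complement receptor CD21, at 22.5 ± 1.69 RPKM in KO and 13.9 ± 0.923 in Ctrl plasma cells (0.66, adjusted p = 0.027). Fcer2a, the gene of CD23, had 0.981 ± 0.107 RPKM in KO and 0.333 ± 0.0834 in Ctrl plasma cells (0.57, adjusted p = 0.113). Of 14 tested transcription factors known to act on Il10 or on checkpoint genes, 2 were called, both lower in KO activated cells. Tbx21, the gene of T-bet, had 14.3 ± 2.83 RPKM in KO and 36.2 ± 8.51 in Ctrl activated cells (-1.27, adjusted p = 0.024). The other was Irf1, an interferon regulatory factor (-0.80, adjusted p = 0.008). Prdm1, the gene of Blimp-1, which drives plasma cell differentiation, had 17.2 ± 3.85 RPKM in KO and 31.5 ± 5.43 in Ctrl activated cells (-0.85, adjusted p = 0.220) and 99 ± 4.99 in KO and 103 ± 5.29 in Ctrl plasma cells. Of 5 tested P2Y-like receptor genes near or related to Gpr171, none was called in KO activated or plasma cells, and 2 were called lower in KO naive cells. Gpr183, a receptor that positions B cells in the follicle, had 116 ± 11.3 RPKM in KO and 156 ± 20.4 in Ctrl naive cells (-0.43, adjusted p = 0.050, under the threshold before rounding), and P2ry12 differed by -1.57 (adjusted p = 0.037).

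The genes most like each of the 8 were found by Pearson correlation of log2 values over the 18 libraries, which share their 6 groups and their differences in depth, and is given as a description. Closest to Tigit were Gfpt1 (r = 0.982), Bsg (0.982) and Slc30a5 (0.976). Ctla4 ran with Tram2 (0.979), Endou (0.975) and Rcbtb2 (0.972). Gfpt1 had 36.5 RPKM in KO and 37.9 in Ctrl plasma cells, and Bsg 362 in KO and 395 in Ctrl, so neither mean was higher in KO as that of Tigit was. Il10 ran with Pdk3 (0.968), Ptpn22 (0.963) and Rrm2 (0.958), and Lag3 less closely with Esyt2 (0.911), Hagh (0.903) and Tcf25 (0.891). Il10ra ran with Fgd2 (0.994), Gimap3 (0.991) and Cyb561a3 (0.988). The means of these 3 were also higher in KO than in Ctrl plasma cells: Fgd2 had 11.9 RPKM in KO and 5.73 in Ctrl, Gimap3 10.3 in KO and 3.42 in Ctrl, and Cyb561a3 4.51 in KO and 1.7 in Ctrl. Pdcd1lg2 ran with Hopx (0.964), Rnf144a (0.955) and the globin gene Hbb-b2 (0.945). In activated cells Hopx had 12.4 RPKM in KO and 3.67 in Ctrl, Rnf144a 10.7 in KO and 4.87 in Ctrl, and Hbb-b2 36.2 in KO and 7.01 in Ctrl. Cd274 ran with Gatd1 (0.939), Borcs8 (0.939) and Tmem225 (0.934), and Gpr171 with Rtp4 (0.973), Rgs2 (0.971) and S1pr1 (0.967). Among the 8 themselves Tigit and Ctla4 ran together (0.92), Tigit and Il10ra ran opposite (-0.93), and Cd274 and Pdcd1lg2, neighbours on chromosome 19, stood at 0.58.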

How the data were processed

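RNA from 18 libraries was measured in 6 groups of 3, by cell type and genotype from the titles and genotype labels. Per the labels' protocols, 1000 cells per library gave SMART-seq v4 complementary DNA, of which 200 pg entered Nextera XT. The authors deposited RPKM values for 12960 detected genes; STAR and mm10 are named per the submitters' processing notes, and the sources used here do not state versions, gene models, counting or the detection criterion. Positions are from GENCODE M21 or RefSeq on GRCm38. Depth was estimated from the steps between low RPKM values times gene length and covers counting error only. At the estimated depths, 29.5% to 40.8% of the low values scored in a library fell within 0.1 of a whole read. The depths and the estimated reads are therefore rough.

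The deposited RPKM values were divided by median-of-ratios factors (0.903 to 1.07, from 8012 genes above 1 RPKM in all libraries). Genes with a group mean of at least 1 were tested (12787; 173 left out) on log2(scaled RPKM + 1) with limma 3.58.1 in R 4.3.3: 6 group means, a trended prior, two-sided, Benjamini-Hochberg adjusted. The script was tested on simulated data. The contrasts were KO against Ctrl in each cell type, the steps between cell types in each genotype, and differences of the KO effect. Alternatives were RPKM as deposited, quantile normalization, a pseudocount of 0.1, no filter or a filter at 5 RPKM, only the libraries compared, library weights, a replicate block, and each library left out; leaving out the naive libraries was added after seeing the data. Besides the 8 genes, each list gave up to 4 tested genes with the smallest adjusted p and a group mean of at least 5 RPKM, and each of the 8 its 3 most correlated genes. Other names are stated or are overlapping, neighbouring or marker genes. The members and lists were chosen with earlier results of these data known. Some gene names and values are not reported here. Tables used pandas 2.3.3 and numpy 2.4.6 in Python 3.11.15, and plots matplotlib 3.10.9.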

Additional observations from a re-analysis of the deposited data

Results flagged for a closer look

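In 4 cases the KO effect of a gene differed between cell types by a test of that difference in limma, with adjusted p-values over all tested genes. For Tigit the KO effect was 0.97 in activated and -0.35 in naive B cells, 1.32 apart (adjusted p = 0.039), a call lost under 5 of 8 alternatives (adjusted p up to 0.250) and without any 1 of 7 of 12 libraries. For Il10ra it was 1.27 in plasma cells and -0.32 in activated B cells, 1.59 apart (adjusted p = 0.019), and it was -0.28 in naive B cells, 1.55 apart from plasma cells (adjusted p = 0.009). For Gpr171 it was 0.82 in plasma cells and -0.66 in activated B cells, 1.49 apart (adjusted p = 0.007).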

How the results depend on the processing

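Depth limits the low genes: naive values of Tigit, Lag3, Ctla4 and Il10 rest on few reads and, but for Il10 in 1 KO library, lie below the odorant receptor median, and the depth itself is an estimate. The causes of the changes below were not tested. The labels do not say what a shared replicate number marks, so the samples were treated as unpaired. Deviations from the group means were correlated between same-numbered KO and Ctrl libraries. The correlations were 0.015, -0.102 and -0.040 in naive, -0.101, 0.019 and 0.109 in activated and 0.089, 0.223 and 0.255 in plasma cells. Between plasma and activated Ctrl libraries they were 0.127, 0.093 and 0.097. Libraries with different numbers were not correlated, so these values do not settle whether the samples are paired.

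Of the 8 genes, 1 was called between KO and Ctrl in naive cells, but 2 with RPKM as deposited and 0 with only the libraries compared, with library weights or with the replicate block. In activated cells 3 were called, but 5 with only the libraries compared, with weights or without the naive libraries, and 1 (Pdcd1lg2) with the replicate block. In plasma cells 2 were called, but 4 with weights or without the naive libraries (Tigit and Lag3 being added), 1 with quantile normalization and 1 (Il10ra) with the replicate block. For the KO effect in activated minus naive cells, 0 were called with quantile normalization, a pseudocount of 0.1, only the libraries compared, weights or the replicate block. For plasma minus activated cells, 4 were called with weights and 0 with the replicate block. For plasma minus naive cells, 0 were called with only the libraries compared or with weights. Leaving out 1 library gave 0 to 2 called genes in naive, 1 to 2 in activated and 1 to 1 in plasma cells, and 0 to 2, 1 to 2 and 1 to 2 for those 3 differences of the KO effect. Counts for the steps between cell types stayed within 1.5 times under every alternative run.

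With the replicate block, calls were lost for Ctla4 in naive cells (adjusted p = 0.053), Tigit (0.068) and Gpr171 (0.126) in activated cells and Gpr171 in plasma cells (0.132), and for the change of the KO effect in Tigit (0.070), Il10ra (0.099) and Gpr171 (0.10); the calls of Pdcd1lg2 in activated cells and Il10ra in plasma cells held.

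Direction changed only among differences that were not called. With RPKM as deposited these were Ctla4 between KO and Ctrl plasma cells (0.04) and Il10ra between activated and naive KO cells (0.02). Quantile normalization turned Ctla4 in plasma cells (0.02), Cd274 between plasma and activated KO cells (0.03), Il10ra between activated and naive Ctrl cells (-0.21), and the KO effect of Il10ra in activated minus naive (0.03) and of Lag3 in plasma minus naive cells (-0.21). Library weights turned Ctla4 in plasma cells (0.24), Cd274 between plasma and activated KO cells (0.06), and the KO effect of Il10 in plasma minus activated (-0.06) and of Lag3 in plasma minus naive cells (-0.13). The replicate block turned Lag3 between plasma and naive Ctrl cells (-0.21), and a pseudocount of 0.1 the KO effect of Pdcd1lg2 in plasma minus naive cells (0.07). Leaving out 1 library moved the KO difference in naive cells from -0.40 to 0.91 for Il10, -0.63 to 0.05 for Cd274 and -0.07 to 0.28 for Gpr171. In activated cells it ran from -0.01 to 0.11 for Lag3 and -0.02 to 0.33 for Il10, and in plasma cells from -0.24 to 0.18 for Ctla4. Steps ran from -0.25 to 0.16 for Il10ra (activated minus naive, KO), -0.08 to 0.12 for Il10ra (the same, Ctrl), -0.10 to 0.07 for Cd274 (plasma minus activated, KO), -0.25 to 0.08 for Cd274 (the same, Ctrl) and -0.20 to 0.75 for Lag3 (plasma minus naive, Ctrl). The KO effect in activated minus naive cells ran from -0.73 to 0.57 for Il10, -0.28 to 0.12 for Il10ra and -0.59 to 0.08 for Cd274. In plasma minus activated cells it ran from -0.14 to 0.29 for Il10 and -0.10 to 0.24 for Cd274, and in plasma minus naive cells from -0.26 to 0.69 for Lag3, -0.64 to 0.66 for Il10 and -0.55 to 0.12 for Cd274.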
